A study of Mus musculus with 6 samples.

Results

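The globin genes of the mouse were examined in LSK cells (lineage marker-/Sca1+/cKit+), the bone marrow fraction that holds haematopoietic stem and early progenitor cells. Members were the 9 genes Hba-a1, Hba-a2, Hbb-b1, Hbb-b2, Hbb-bs and Hbb-bt (adult) and Hba-x, Hbb-y and Hbb-bh1 (embryonic), taken by the gene name printed for each array probe. A probe is a 60-base oligonucleotide on the array. Of the 56605 probes, 10 carried the name of a member, in 37 spots, and they covered 8 of the 9 genes. No probe was named Hbb-bs.

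The study compared LSK cells with and without Atg5, a gene needed to form autophagosomes. The control group was wild type at the Atg5 locus and carried the Cre transgene (Atg5w/w;VaviCre+). The Atg5f/f;Vav group carried floxed Atg5 on both chromosomes and the same transgene. All mice were C57BL/6 between postnatal days 6 and 8, and each group had 3 samples of total RNA from sorted cells, each on 1 single-colour Cy3 array. VaviCre is active throughout the blood lineages from before birth, so every blood cell of these mice, and not the LSK cells alone, could have lost Atg5. The labels do not give how many mice made up a sample, so the p-values measure only the spread between these samples.

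Adult haemoglobin is a tetramer of a pair of alpha chains and a pair of beta chains, each holding a haem group. The mouse alpha cluster carries Hba-x, then Hba-a1 and Hba-a2, and the beta cluster carries Hbb-y and Hbb-bh1, then the adult genes. Hba-x, Hbb-y and Hbb-bh1 are transcribed mainly in primitive red cells of the yolk sac. The adult genes are transcribed in definitive red cells, and mouse strains carry either the pair Hbb-bs and Hbb-bt, as C57BL/6 does, or the pair Hbb-b1 and Hbb-b2.

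Sequences of 4 probes that lie inside the transcripts are shown (5′ to 3′, as in the scanner files, no base marked). They are what the array read under the names of an adult alpha, an adult beta and 2 of the embryonic genes. Each of these 4 held 1 reading frame free of stop codons.
Hba-a1 from transcript base 161: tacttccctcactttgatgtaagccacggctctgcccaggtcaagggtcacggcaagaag
Hbb-b2 from transcript base 215: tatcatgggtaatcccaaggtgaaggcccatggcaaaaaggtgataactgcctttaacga
Hba-x from transcript base 258: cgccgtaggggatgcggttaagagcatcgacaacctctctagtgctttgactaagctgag
Hbb-y from transcript base 379: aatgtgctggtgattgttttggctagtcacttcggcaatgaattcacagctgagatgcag
On mm9, the build of the array design, the Hba-a1 probe lay at chr11:32183955-32184014 on the plus strand. The Hba-x probe lay at chr11:32177668-32177727 on the plus strand and the Hbb-y probe at chr7:111000448-111000507 on the minus strand. The Hbb-b2 probe had no position on mm9.

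Several probes could not tell neighbouring genes apart. The second Hba-a1 probe (from transcript base 499) and the Hba-a2 probe (from base 497) shared a run of 59 of 60 bases, and each listed transcripts of both alpha genes, so they were read as 1 measurement of Hba-a1 and Hba-a2 together. The Hba-a1 probe from base 161 likewise listed 2 RefSeq transcripts, so it was not shown to read Hba-a1 alone. The Hbb-b1 probe (from base 5) also listed a transcript of Hbb-bs. Over the stretch that could be compared with RefSeq, this probe was identical to the start of Hbb-bs at 46 of 46 bases and to that of Hbb-bt at 38 of 45. The Hbb-b2 probe listed Hbb-b1 as well.

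RefSeq promoters (GRCm38.p6) were found for 6 of the 9 members, and Hbb-b1, Hbb-b2 and Hbb-bh1 had no entry. The 120 bases before the start of transcription are shown for 4 of them, an adult and an embryonic gene of each cluster. Capitals mark CCAAT and ATATAA on either strand. The first is the CCAAT box and the second a TATA box.
Hba-a1, chr11:32283552-32283671, plus strand: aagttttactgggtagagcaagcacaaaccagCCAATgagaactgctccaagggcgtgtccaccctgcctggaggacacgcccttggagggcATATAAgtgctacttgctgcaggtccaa
Hbb-bt, chr7:103813924-103814043, minus strand: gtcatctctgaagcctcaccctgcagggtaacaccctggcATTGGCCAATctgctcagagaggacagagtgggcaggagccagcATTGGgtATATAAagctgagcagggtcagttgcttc
Hba-x, chr11:32276480-32276599, plus strand: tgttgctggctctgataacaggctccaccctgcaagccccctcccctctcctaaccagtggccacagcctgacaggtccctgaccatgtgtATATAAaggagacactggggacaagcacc
Hbb-y, chr7:103853208-103853327, minus strand: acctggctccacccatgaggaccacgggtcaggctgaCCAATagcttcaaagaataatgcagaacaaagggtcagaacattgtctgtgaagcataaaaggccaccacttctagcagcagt
The 4 adult promoters (Hba-a1, Hba-a2, Hbb-bs and Hbb-bt) each held both motifs within 250 bases, against 3.41% of all 32851 promoters. CCAAT alone was in 33.8% and ATATAA alone in 9.10%. Hba-x held ATATAA without CCAAT, and Hbb-y held CCAAT without ATATAA. All 6 held GATAA, the core bound by GATA factors, which 22.6% of promoters held. CCNCNCCC, the form bound by the erythroid factor Klf1, was found in Hbb-bt, Hbb-bs and Hba-x and in 45.9% of all promoters. Both strands were searched, matches could overlap, and ATTGGCCAAT in Hbb-bt counts on each strand. The 120-base windows were aligned without gaps, with a shift of 3 bases for Hba-a1 and Hba-a2 and of 1 for Hbb-bt and Hbb-bs. The first pair was identical at all 117 bases compared and the second at 88 of 119. A match is a run of letters, and binding was not measured.

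All 6 arrays lay on 1 slide and were scanned once. The control arrays filled slide row 1 and the Atg5f/f;Vav arrays row 2, so row and genotype cannot be told apart. Between 53.6% and 59.9% of spots were well above background on each array, the 75th percentile of intensity was 620 to 881, and no spot was saturated. The Atg5 probe starts at transcript base 2251, outside the floxed part of the gene, and therefore checks no label. Its log2 signal was 0.93 to 1.10 in control and 1.46 to 1.74 on the arrays labelled Atg5f/f;Vav. All 10 stem and progenitor markers listed for LSK cells were well above background on every array. Of these, Ly6a, which encodes Sca1, was higher in Atg5f/f;Vav cells, Hlf, Mecom and Meis1 were lower, and 6 did not pass the test.

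Adult globin signal was lower in Atg5f/f;Vav LSK cells at every adult probe. The 6 probes fell by between 1.22 and 2.39 on the log2 scale (median log2 fold change -2.08, SE 0.20 to 0.39), that is between 2.34-fold and 5.25-fold. All 6 passed limma's test (adjusted p 0.0137 to 0.0170), in an array where 17.1% of the 32066 probes tested were called lower. Values below are log2 signal minus the 75th percentile of the same array, in the order of replicates 1, 2 and 3. In bulk RNA, fewer cells of a type and less RNA per cell cannot be told apart.

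The alpha chain genes were read by 3 probes with 10 spots each. At Hba-a1 from base 499 the log2 signal was 8.90, 8.84 and 7.72 in control and 6.00, 6.42 and 6.28 in Atg5f/f;Vav cells. Control replicate 3 was the lowest of its group, and it was still above every Atg5f/f;Vav array. The fall was 4.78-fold (log2 fold change -2.26, SE 0.32, limma adjusted p = 0.0137). The near-identical Hba-a2 probe gave 8.84, 8.74 and 7.63 against 5.94, 6.36 and 6.19 (log2 fold change -2.24). At Hba-a1 from base 161, the probe printed above, the log2 signal was 7.05, 6.88 and 5.50 in control and 3.92, 4.29 and 4.04 in Atg5f/f;Vav cells. This probe shares no long run with the other alpha probes, but it too may read both alpha genes. It had the same order of arrays in control and a fall of 5.25-fold (log2 fold change -2.39, SE 0.39, limma adjusted p = 0.0149). The SD between the spots of one alpha probe on one array was 0.030 to 0.099, below the spread between control arrays.

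The probes named for beta chain genes fell as well. At Hbb-bt, an adult beta gene that C57BL/6 carries, the log2 signal was 7.79, 7.50 and 7.04 in control and 6.17, 6.34 and 6.16 in Atg5f/f;Vav cells. The groups did not overlap, and the fall was 2.34-fold (log2 fold change -1.22, SE 0.20, limma adjusted p = 0.0147). The Hbb-b1 probe, which also matches the start of Hbb-bs, gave 3.67, 3.46 and 2.20 in control and 0.91, 1.38 and 1.29 in Atg5f/f;Vav cells. Its fall was 3.77-fold (log2 fold change -1.92, SE 0.38, limma adjusted p = 0.0170). The Hbb-b2 probe, named for a gene of the pair that C57BL/6 does not carry, gave 5.35, 5.11 and 4.02 against 2.90, 3.12 and 3.02. This was a fall of 3.52-fold (log2 fold change -1.82, SE 0.33, limma adjusted p = 0.0162). Again control replicate 3 was the lowest control on both probes and stood above all 3 Atg5f/f;Vav arrays.

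**Figure D1:**
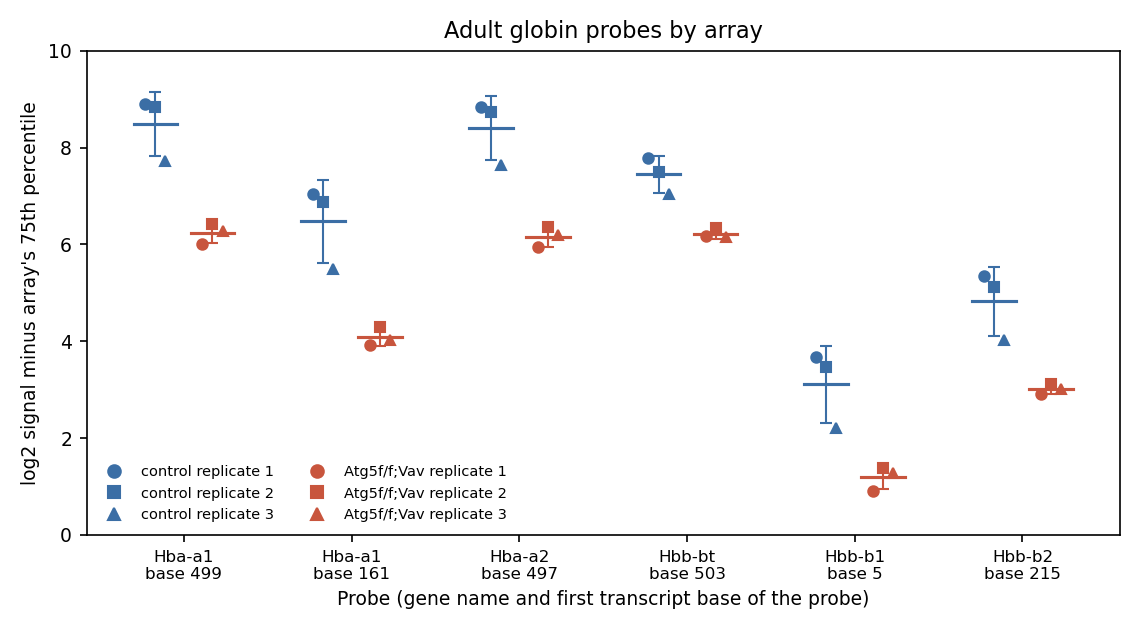
Log2 signal minus the array's 75th percentile (vertical axis) of the 6 adult globin probes (horizontal axis, with the first transcript base of each probe) on 3 control and 3 Atg5f/f;Vav arrays, where lines are group means and bars SD. At each probe the 3 Atg5f/f;Vav arrays lie below the 3 control arrays, and control replicate 3 is the lowest control.

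None of the 6 adult probes had overlapping groups, against 28.3% of all probes tested that were separated in this direction. Ranked by the size of the fall over 32066 probes, Hba-a1 from base 161 had rank 67, Hba-a1 from base 499 rank 102 and Hba-a2 rank 111. Hbb-b1 and Hbb-b2 followed at ranks 246 and 308, and Hbb-bt at rank 1164. The control arrays spread more than the Atg5f/f;Vav arrays at all 5 adult gene names, each read at the probe with its highest mean signal. Of these, Hba-a1 and Hba-a2 were read by near-identical probes. The range over the 3 arrays was 0.74 to 1.47 in control and 0.18 to 0.47 in Atg5f/f;Vav cells. Without control replicate 1 or without control replicate 2, none of the 6 passed the adjusted threshold (limma adjusted p 0.0570 to 0.0675 and 0.0647 to 0.0729), with falls of 1.05 to 2.11 and 1.19 to 2.19 on the log2 scale and all 6 at an unadjusted p under 0.05.

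No embryonic gene was called lower. Hba-x, the embryonic alpha-like gene, and Hbb-y, an embryonic beta-like gene, were not well above background on any of the 6 arrays and were not tested. Their log2 signals were -7.17 to -6.56 for Hba-x and -7.07 to -5.88 for Hbb-y over all arrays, under the lowest signal that counted as well above background (-5.0 to -4.42). Hbb-bh1, the other embryonic beta-like gene, was dim and higher in Atg5f/f;Vav cells. At its probe from base 493 the log2 signal was -4.93, -5.04 and -4.46 in control and -3.83, -3.76 and -4.09 in Atg5f/f;Vav cells. It passed the background test on 1 of 3 control arrays and on every Atg5f/f;Vav array, and the groups did not overlap, as for 27.1% of all probes tested in this direction. The fitted log2 fold change was 0.92 (SE 0.18, limma adjusted p = 0.0171), where 17.3% of all probes tested were called higher. Background correction by normexp kept this call but reduced the log2 fold change to 0.29 (limma adjusted p = 0.0476). Since this probe entered the test mainly through the Atg5f/f;Vav arrays and most control values lay at background, the size of the rise was not well measured.

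A second Hbb-bh1 probe lay at chr7:110990930-110990989 on mm9 and was designed on another transcript of this name. Its log2 signal was -4.79, -5.23 and -4.88 in control and -4.67, -4.09 and -4.78 in Atg5f/f;Vav cells. The groups were separated by a small margin, and the difference did not pass the test (log2 fold change 0.45, SE 0.21, limma adjusted p = 0.136). It was well above background on 1 control array and 2 Atg5f/f;Vav arrays.

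**Figure D2:**
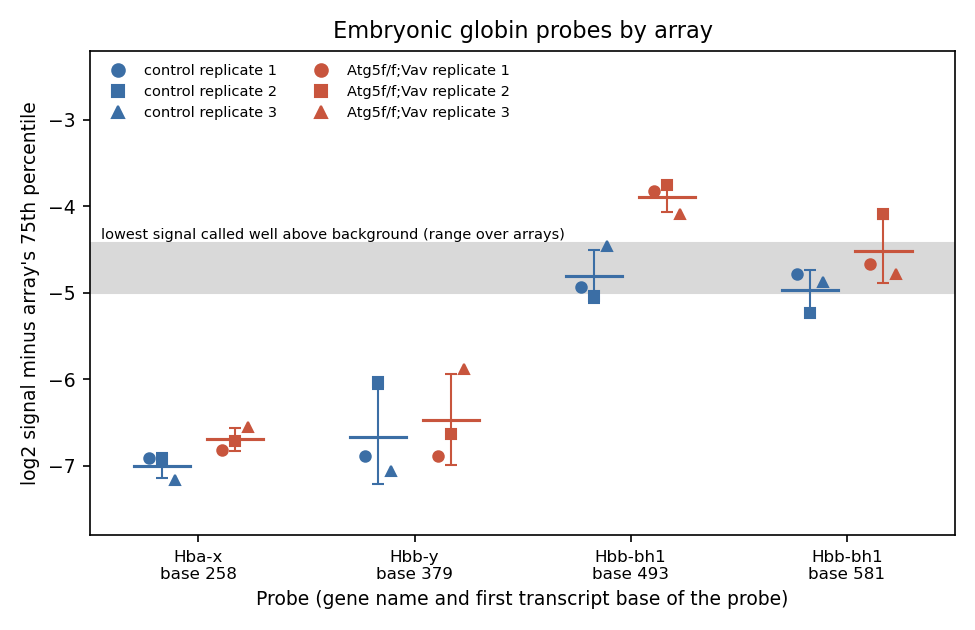
Log2 signal minus the array's 75th percentile (vertical axis) of the 4 embryonic globin probes (horizontal axis) on the same arrays, with group means and SD and, in grey, the lowest signal called well above background on the 6 arrays (-5.0 to -4.42). Hba-x and Hbb-y lie under the band, and Hbb-bh1 from base 493 rises above it on all 3 Atg5f/f;Vav arrays.

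The sizes of these changes were then set against each other within each array, which needs no scaling between arrays. The log2 signal of Hbb-bh1 minus that of Hbb-bt was -12.71, -12.55 and -11.50 in control and -9.99, -10.10 and -10.24 in Atg5f/f;Vav cells, a shift of 2.14 (SE 0.39). This shift was 1.51 to 2.73 over the alternatives and carries the same limit, with Hbb-bh1 above background on 1 of 3 control arrays. Hbb-bt minus Hba-a1 was -1.12, -1.34 and -0.68 in control and 0.17, -0.079 and -0.12 in Atg5f/f;Vav cells, a shift of 1.03 (SE 0.21). On each Atg5f/f;Vav array the difference was above that on each control array. The groups did not overlap for either pair. The two-sided exact permutation test gave p = 0.1 for both, also after adjustment over the 2 pairs. This is the smallest p that 3 arrays against 3 allow. For Hbb-bh1 minus Hbb-bt the outcome was fixed beforehand. Hbb-bh1 alone was already higher, and Hbb-bt alone lower, on every Atg5f/f;Vav array, so the test of this pair adds no support. Pairs with Hba-x or Hbb-y were not tested because these probes were not above background.

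Of 9 other globins listed, 7 had a probe and 2 were tested, and 1 was called lower (15.3% over all genes). Cygb did not pass the test (log2 fold change -0.11, limma adjusted p = 0.811). Hbq1a was well above background on 1 Atg5f/f;Vav array only and was not tested. The gene called was Hbq1b, a theta-like gene of the alpha cluster. Its log2 signal was -3.71, -3.66 and -4.42 in control. All 3 control arrays measured it and it was not well above background on any Atg5f/f;Vav array, so it was at least 1.59-fold lower (limma adjusted p = 0.0138). It entered the test through the control arrays, so its size is given only as this bound. The p-value comes from the fit to background values in Atg5f/f;Vav cells and does not measure the bound. Hbb-bh2, myoglobin (Mb), neuroglobin (Ngb) and Adgb were not well above background on any array.

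Genes that serve haemoglobin assembly moved in both directions. Of 14 partner genes tested, 6 rose, 2 fell and 6 did not pass the test (median log2 fold change 0.63, against -0.032 over all 20773 genes, of which 18.7% were called higher and 15.3% lower). Alas2, the erythroid enzyme that starts haem synthesis, fell with the globins. Its log2 signal was 1.66, 1.48 and 0.14 in control and -1.31, -0.69 and -0.93 in Atg5f/f;Vav cells (log2 fold change -2.07, SE 0.40, limma adjusted p = 0.0168). Slc25a37, the mitochondrial iron importer mitoferrin, also fell (log2 fold change -0.71). Later enzymes of the same pathway rose, by 1.36 for Alad, 0.75 for Urod and 1.56 for Cpox on the log2 scale. Tfrc, the transferrin receptor that brings in iron, rose most, with a log2 fold change of 2.15, and Slc25a38, the mitochondrial glycine carrier, rose by 0.92. Without Atg5f/f;Vav replicate 2 or without control replicate 3, fewer genes of these and the next lists passed (16 and 17 higher against 26). Without control replicate 1 or control replicate 2, none of them passed in either direction.

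Ahsp, the chaperone of free alpha chains, did not pass the test. Its log2 signal was 4.12, 4.03 and 2.68 in control and 2.95, 3.90 and 5.05 in Atg5f/f;Vav cells. The groups overlapped over most of their range (log2 fold change 0.36, SE 0.59, limma adjusted p = 0.657). Control replicate 3 was the lowest control here too.

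Transcription factors listed for the control of globin genes were higher or did not pass the test, apart from Ikzf1. Of 11 tested, 5 rose, 1 fell and 5 were not called (median log2 fold change 0.26), against 18.7% higher and 15.3% lower over all genes. Gata1, the main erythroid GATA factor, had log2 signals of 0.87, 0.38 and 0.95 in control and 2.90, 3.73 and 4.56 in Atg5f/f;Vav cells, a rise of 3.0 (SE 0.40, limma adjusted p = 0.0121). Klf1, which binds CACCC motifs of the beta promoter, had -1.58, -2.08 and -2.62 against -0.21, 0.85 and 1.93, a rise of 2.95 (SE 0.53, limma adjusted p = 0.0159). For both factors every Atg5f/f;Vav array was above every control array, the reverse of the adult globins. Gfi1b rose by 2.23, the Gata1 cofactor Zfpm1 by 0.93 and Ldb1, which links promoter and enhancer, by 0.37 on the log2 scale. Ikzf1 (Ikaros) fell by 0.34.

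Of 14 genes known from the switch between embryonic and adult globins, 2 rose, 2 fell and 10 did not pass the test (median log2 fold change -0.26), shares near those over all genes (18.7% higher and 15.3% lower). Bcl11a, which silences embryonic globin genes, had a log2 fold change of 0.24 (SE 0.099, limma adjusted p = 0.0938). Sox6, which acts with Bcl11a, fell by 0.78 (limma adjusted p = 0.0193), and Igf2bp2 fell by 1.07. Mbd2 and Klf13 rose by 0.90 and 0.42. Lin28b and Igf2bp3, genes of the foetal programme, had log2 fold changes of 0.15 and 0.20 and did not pass the test.

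Of 16 red cell membrane and transport genes tested, 6 rose, 1 fell and 9 were not called (median log2 fold change 1.27), against the same 18.7% and 15.3%. The gene that fell was Slc4a1, the anion exchanger band 3. Its log2 signal was 2.80, 2.69 and 1.31 in control and 0.035, -0.035 and -0.054 in Atg5f/f;Vav cells (log2 fold change -2.29, SE 0.38, limma adjusted p = 0.0149). The largest rises were those of Atp1b2 (4.54), Car1, a carbonic anhydrase (3.80), and Rhag, of the Rh complex (2.41).

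Of 12 genes of erythroid progenitors tested, 8 rose, none fell and 4 did not pass the test (median log2 fold change 1.88), with 18.7% higher over all genes. Ces2g rose by 3.60, Cited4 by 3.28 and Tspo2 by 3.0 on the log2 scale. Epor, the erythropoietin receptor, rose by 2.08. Trim10, a gene of late erythroid cells, gave a log2 fold change of -1.21 with a limma adjusted p of 0.0581. Over the 52 genes of the partner, transcription, membrane and progenitor lists together, 24 rose and 4 fell (18.7% and 15.3% over all genes). The 4 were Alas2, Slc25a37, Ikzf1 and Slc4a1. All of these lists were chosen with earlier results of these data known, so their counts are a description and not a test.

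**Figure D3:**
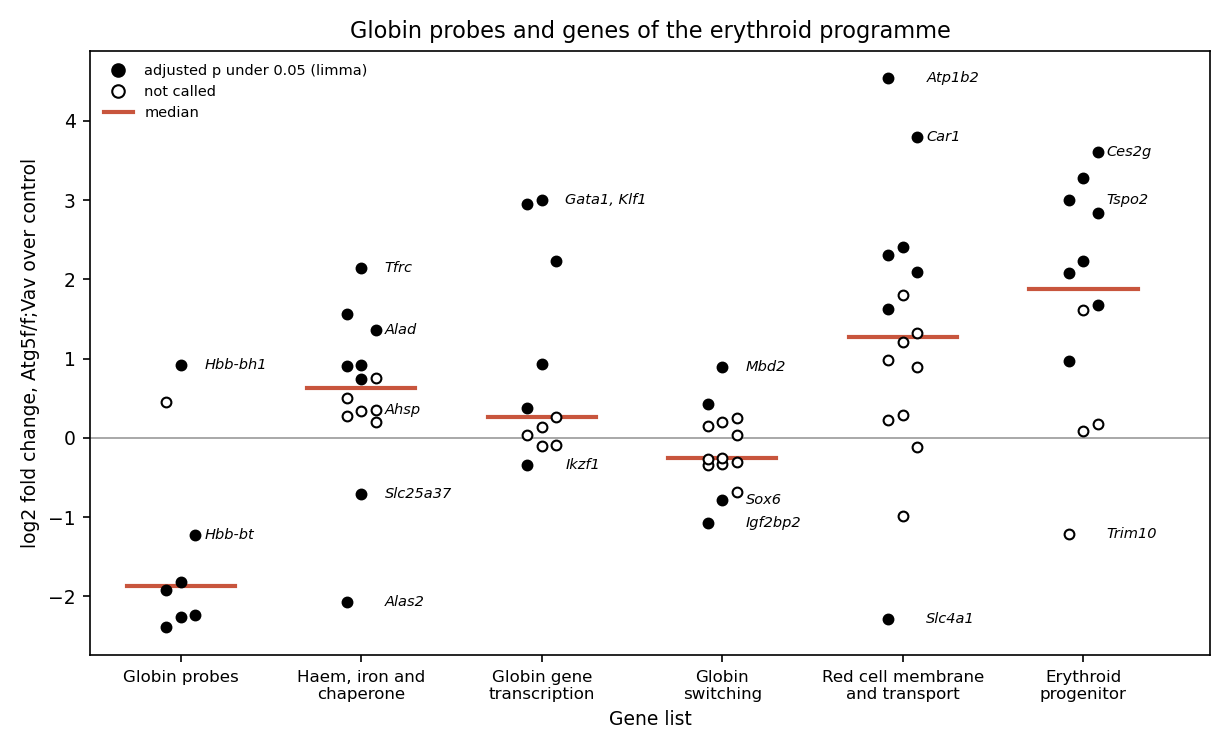
Log2 fold change between Atg5f/f;Vav and control (vertical axis) of the 8 globin probes tested and of the genes of 5 lists (horizontal axis), where filled points passed limma's test at an adjusted p of 0.05, open points did not and red lines are medians. The adult globins lie with Alas2 and Slc4a1 at the bottom, while Gata1, Klf1, Car1 and Atp1b2 lie at the top of their lists.

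Of 14 genes beside the globin clusters that were tested, 2 rose, 2 fell and 10 did not pass the test (median log2 fold change 0.094), again near the shares over all genes (18.7% higher and 15.3% lower). Nprl3, whose introns hold the enhancers of the alpha genes, had 0.83, 0.96 and 0.86 in control and 0.93, 0.97 and 1.05 in Atg5f/f;Vav cells (log2 fold change 0.10, SE 0.10, limma adjusted p = 0.453). Mpg, next to it, had a log2 fold change of 0.084, and Snrnp25 rose by 0.33. Scaling to the probes detected on all arrays turned the sign of Nprl3 and Mpg, and quantile normalisation that of Mpg and Snrnp25, with none of these turned values called. The rise of Snrnp25 thus depended on the scaling. Rhbdf1 fell by 1.73 (limma adjusted p = 0.0293), and Hbq1b, with the limit given above, was the other neighbour called lower. At the beta cluster, Trim12a rose by 0.40. Its call was lost in 10 of 16 alternatives, with log2 fold changes down to 0.20.

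The likeness of other genes to the adult globins was measured over the 6 arrays as the root mean square distance of centred log2 signals. The distance was taken from the mean profile of the 5 adult gene names measured. That profile was 1.40, 1.22 and 0.21 in control and -1.13, -0.79 and -0.92 in Atg5f/f;Vav cells. Of 20773 gene names on the array, 14405 were current RefSeq symbols and 728 were synonyms, and the nearest genes were taken from these. They were Fhdc1 (distance 0.12, r = 0.993), Gm9992, now named Unc93a2 (0.16, r = 0.993), Slc2a4 (0.16, r = 0.988), Alas2 (0.16, r = 0.996) and Zdhhc22 (0.18, r = 0.993), with n = 6 arrays that share the group difference. All 5 were called lower, with log2 fold changes of -1.60 to -2.07. Falls of this kind follow from choosing genes near this profile and are no separate result. Slc4a1 was also near (distance 0.26). Hbb-bh1 ran against the profile (r = -0.967 over 6 arrays). The profile held Hba-a1 and Hba-a2 as separate genes although their probes are near-identical. With this pair counted once, an alternative chosen after seeing the data, 3 of the nearest 5 were shared (Fhdc1, Gm9992 and Slc2a4), and Alas2 was no longer among them.

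**Figure D4:**
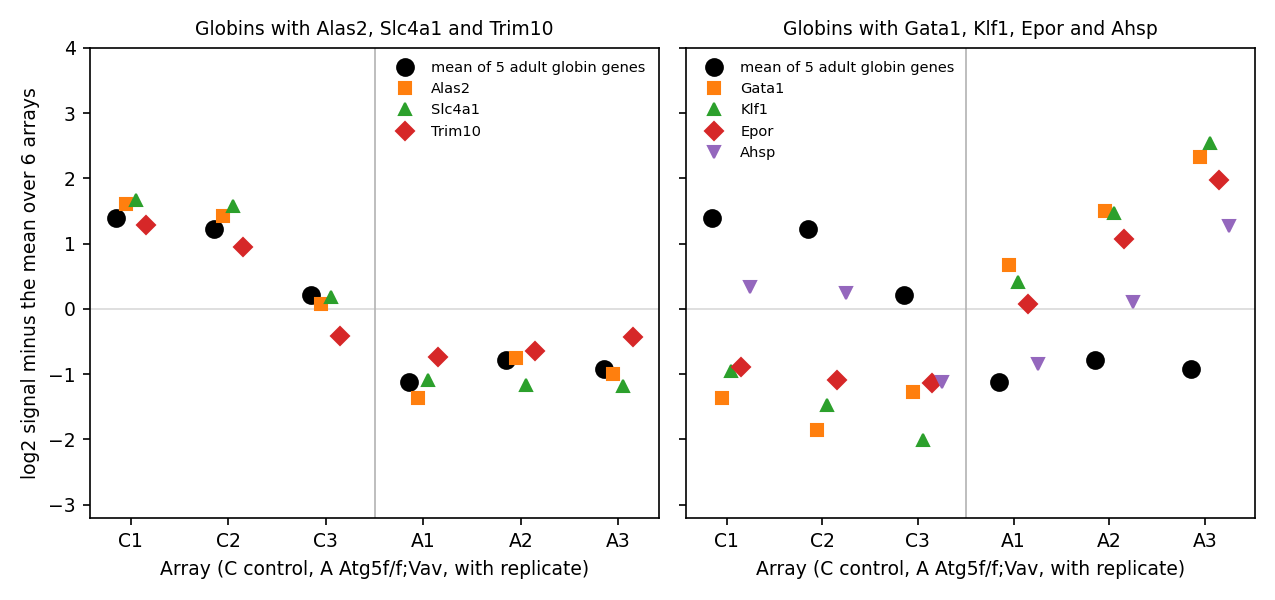
Log2 signal minus the gene's mean over the 6 arrays (vertical axis) on each control (C) and Atg5f/f;Vav (A) array (horizontal axis). Black circles are the mean of the 5 adult globin gene names and other symbols are single genes. Alas2 and Slc4a1 stand high on control replicates 1 and 2 and low on the Atg5f/f;Vav arrays like the globins, whereas Gata1, Klf1 and Epor are highest on Atg5f/f;Vav replicate 3.

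Within each group the arrays were also compared. In Atg5f/f;Vav cells the log2 signal ranged over 0.42 for Hba-a1, 0.18 for Hbb-bt and 0.088 for Slc4a1. It ranged over 1.66 for Gata1, 2.14 for Klf1 and 1.90 for Epor, which rose, and over 2.10 for Ahsp, which did not pass the test, each lowest on replicate 1 and highest on replicate 3. In control, replicate 3 was below the mean of the other two by 1.15 for Hba-a1, 1.44 for Alas2, 1.44 for Slc4a1 and 1.40 for Ahsp on the log2 scale. Several genes that rose were also lower in control replicate 3, by 1.31 for Rhag, 1.18 for Cldn13, 1.02 for Tspo2 and 0.79 for Klf1, whereas Epor differed by 0.15 and Gata1 was 0.33 higher there.

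Markers listed for other cell types were counted against 15.3% lower and 18.7% higher over all genes. Of 8 neutrophil markers, 7 were lower in Atg5f/f;Vav cells, among them S100a8 and S100a9. The other, Ly6g, was higher (log2 fold change 0.71, limma adjusted p = 0.0149). The summed signal of the 8, relative to each array's 75th percentile, was 79.6 to 165 in control and 38.4 to 68.2 in Atg5f/f;Vav cells. All 8 were well above background on every array. Of 5 macrophage genes tested, Cd5l and Vcam1 were lower and 3 were not called. Of 5 stroma genes tested, 3 were lower and 2 were not called. For Col1a1 the log2 signal was -4.14, 3.23 and 2.95 in control, lowest in replicate 1. It was not well above background on any Atg5f/f;Vav array, so it entered the test through the control arrays. Of 7 megakaryocyte genes tested 2 were higher and 3 lower. The lower ones include Ppbp, which was likewise not well above background on any Atg5f/f;Vav array. Of 7 B cell genes 1 was higher, of 7 mast cell and eosinophil genes 1 was lower, and of 6 T and NK cell genes none was called. The part of any of these cells in the globin signal was not tested.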

How the data were processed

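LSK cells were sorted into TRIzol, and their RNA was labelled with Cy3 and hybridised to single-colour Agilent arrays. The authors extracted spot intensity with Agilent Feature Extraction 12.0.3.1, and the processed intensity is spatially detrended and background-subtracted. The deposited value table holds the signal of each probe as intensity divided by the array's 75th percentile. It was used as an alternative. The deposited well-above-background and outlier flags were also used.

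Control and outlier spots were left out, intensity was scaled to the 75th percentile of the 59305 other spots of each array, and log2 values of spots of one probe were averaged. Probes that passed the deposited background test on 3 or more of the 6 arrays were kept (32074, of which 8 lacked a value because of an outlier flag and were not tested). Groups were compared with limma 3.58.1 in R 4.3.3 (lmFit, eBayes) and Benjamini-Hochberg adjustment over 32066 probes at 0.05. A gene in a list was read at its probe with the highest mean signal. A level is relative to the array, and levels of different probes were not compared. The number of arrays limits the precision. Pairs of probes were compared by an exact permutation test. Tables and figures were made with Python 3.11.15. The fit was tested on simulated data.

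The named genes were all 9 members, any gene of the fixed lists, with the up to 3 largest rises and falls, and the 5 genes nearest to the adult globin profile. Members and lists were chosen with earlier results of these data known. Alternatives were normexp correction (offset 50), quantile normalisation, another percentile, the deposited table, other filters, outlier spots kept, each array left out, a variance trend with intensity, a block for the replicate number and the t-test named in the methods. Some genes of the lists are counted but not reported by name here.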

Additional observations from a re-analysis of the deposited data

How the results depend on the processing

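The adult globin probes kept their direction in all 16 alternatives and their call (6 of 6) in 13. The methods' t-test with Benjamini-Hochberg adjustment called 0 adult and 0 embryonic probes and 0 probes over the array in each direction, although all 6 adult probes, 1 embryonic probe and 13539 probes of the array had an unadjusted p under 0.05. It also called 0 list genes in each direction. With each array left out in turn, limma called 0 to 6 adult probes, 0 to 1 embryonic probes, 155 to 4962 probes higher and 95 to 5340 lower over the array, and 0 to 32 list genes higher and 0 to 7 lower. The zeros came from leaving out control replicate 1 or 2, where 11615 and 11453 probes had an unadjusted p under 0.05.

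Over the array, 5540 probes were higher and 5481 lower. Scaling to the probes detected on all arrays gave 3889 higher and 8742 lower, moved the median of all probes from -0.061 to -0.22, and called 12 list genes lower against 7. Quantile normalisation called 2 embryonic probes higher and 11 list genes lower. No filter gave 2324 probes higher and 2213 lower, and 15 list genes higher and 4 lower. Where all 6 arrays had to be above background, 0 embryonic probes were called because neither Hbb-bh1 probe was then tested. Snrnp25, which had been called higher, turned to -0.0092 under quantile normalisation. Uncalled genes that turned sign were Bcl11a (-0.065), Igf2bp3 (-0.066) and Mpg (-0.13) under quantile normalisation, Lin28b (-0.0071), Nprl3 (-0.054) and Mpg (-0.073) under the other percentile, and Ahsp, at -0.19 to 0.86 with single arrays left out.

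Samples with the same replicate number shared only that number (correlations of their deviations -0.065, 0.19 and 0.11). With the number as a block, 6 adult and 1 embryonic probes were called, with 5261 probes higher and 4912 lower over the array, and 21 list genes higher and 6 lower. No block for the slide was possible, since 1 slide held every array.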
